A study of Mus musculus with 48 samples.

Results

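The 35 genes described here encode the collagens, cross-linking enzymes, proteases, proteoglycans and cell markers of hepatic stellate cells and of the liver's extracellular matrix. They were listed by name, with earlier results of these data known, and the rule that picks them uses no measured value. All 35 were matched by symbol among 55414 gene rows, and all 35 passed the filter on low counts, which left 15414 genes to test. Liver RNA from 48 FCG mice was sequenced, with 6 mice in each of 8 groups. In this C57BL/6 model, named for its core genotypes, Sry, the testis-determining gene, is deleted from the Y chromosome (XY-) and carried as an autosomal transgene (SryTg) by some littermates, so that sex chromosomes and gonads vary independently. XX mice with ovaries are called XX Ov, XY- mice with ovaries XY Ov, XX;SryTg mice with testes XX Te and XY-;SryTg mice with testes XY Te. Each of these was studied intact (Intact) or after gonadectomy (GDX) at 75 days of age. All 48 mice were given a high-fat diet (HFD) with 60% of calories from fat, begun at 15 to 17 weeks of age, for 11 weeks in Intact mice and 15 weeks in GDX mice by the sample labels. The study's methods give other durations. There was no group on a chow diet, and the livers were sequenced whole, so a change in the number of cells of a type and a change in RNA per cell cannot be told apart here.

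Hepatic stellate cells lie between the sinusoidal endothelium and the hepatocytes, where they store vitamin A as retinyl esters. When activated, as in chronic steatotic injury, they lose these stores, become contractile and lay down fibrillar collagen, and they are the main source of scar matrix in the liver. Transforming growth factor beta and platelet-derived growth factors are the best known signals for this change, lysyl oxidases cross-link the collagen, and matrix metalloproteinases and their tissue inhibitors (TIMPs) set how fast it is turned over.

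Reads assigned to genes ranged from 13071874 to 20045141 per library (median 16577748). Reads that fell outside genes made up 3.47% to 6.2% in the 24 Intact mice and 8.52% to 11.3% in the 24 GDX mice, with no overlap. Gonadectomy, the longer diet, the cohort and this library make-up moved together and cannot be told apart in any GDX comparison below. 5 libraries, all Intact, had TMM scaling factors under 0.85 and stand apart (XX Ov mice 49580, 66804 and 97856, XY Ov mouse 89895 and XY Te mouse 70314), and counts without them are given where they differ. Reads of Ddx3y, a Y-linked gene, were at least 44.3 CPM (read counts scaled to the TMM-adjusted library size) in each XY mouse and at most 1.51 CPM in each XX mouse but the XX Te Intact mouse 37366, which had 4.2 CPM. Leaving that mouse out ended 2 of the calls below, Col1a2 between XX and XY mice (adjusted p = 0.0639) and Vim after castration (adjusted p = 0.0521, edgeR).

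Short stretches of DNA before the transcription start are shown for 5 of the genes that carry the comparisons: the fibrillar collagens Col1a2 and Col3a1, the beaded-filament collagen Col6a3, and the cell genes Rgs5 and Vim. Each is the 250 bases upstream of the start in RefSeq (GRCm38.p6), written 5′ to 3′ along the gene. Capitals mark CCAAT, the core letters of the box that NF-Y binds, or ATTGG, its reverse complement, and TATAAA.
Col1a2 (chr6:4505368-4505617, + strand): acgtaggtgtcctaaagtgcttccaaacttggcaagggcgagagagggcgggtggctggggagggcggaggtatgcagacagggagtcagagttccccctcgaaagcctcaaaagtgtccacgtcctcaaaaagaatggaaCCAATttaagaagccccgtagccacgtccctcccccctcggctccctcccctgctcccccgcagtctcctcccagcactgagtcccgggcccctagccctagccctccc
Col3a1 (chr1:45311288-45311537, + strand): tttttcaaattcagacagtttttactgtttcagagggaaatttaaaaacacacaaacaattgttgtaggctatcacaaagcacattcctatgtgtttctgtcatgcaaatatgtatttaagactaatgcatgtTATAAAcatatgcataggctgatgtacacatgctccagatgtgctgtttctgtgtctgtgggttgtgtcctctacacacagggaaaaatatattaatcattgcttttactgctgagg
Col6a3 (chr1:90843972-90844221, - strand): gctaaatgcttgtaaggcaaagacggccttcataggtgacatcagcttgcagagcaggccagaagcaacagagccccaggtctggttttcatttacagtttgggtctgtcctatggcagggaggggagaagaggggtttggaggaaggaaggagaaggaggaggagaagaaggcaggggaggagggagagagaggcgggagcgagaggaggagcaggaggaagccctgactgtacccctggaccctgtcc
Rgs5 (chr1:169655251-169655500, + strand): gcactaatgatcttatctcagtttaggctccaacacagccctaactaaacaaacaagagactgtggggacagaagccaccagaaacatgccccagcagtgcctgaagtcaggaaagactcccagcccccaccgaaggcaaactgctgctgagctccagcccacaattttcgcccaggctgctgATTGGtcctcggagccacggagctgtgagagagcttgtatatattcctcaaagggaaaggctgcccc
Vim (chr2:13574061-13574310, + strand): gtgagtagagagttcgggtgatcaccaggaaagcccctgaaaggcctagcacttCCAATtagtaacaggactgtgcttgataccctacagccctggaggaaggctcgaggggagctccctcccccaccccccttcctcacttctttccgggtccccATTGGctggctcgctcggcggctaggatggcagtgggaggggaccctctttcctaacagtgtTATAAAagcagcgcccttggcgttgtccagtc
CCAAT on either strand was present in the windows of 9 of 23 member genes found in that table, and in 33.8% of all 32851 windows. TATAAA or its reverse complement TTTATA was present in 2 of the 23, Col3a1 and Vim, and in 12.4% of all windows. The CCAAT of Col1a2 lay 109 bases and that of Rgs5 67 bases upstream of the start, and the Col6a3 window held neither motif.

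The members differed widely in level. Compared per kilobase of the longest coding transcript, Dcn, which encodes the small proteoglycan decorin, had the highest mean level, at 122 CPM per kb in Intact and 105 CPM per kb in GDX mice. Bgn (biglycan) followed with 39.6 and 68.2 CPM per kb, then Sparc, the matricellular osteonectin, with 35.3 and 28.4 CPM per kb, and Rgs5, a regulator of G protein signalling found in stellate cells and pericytes, with 25.7 and 14.5 CPM per kb. The fibrillar collagens were far lower, with Col3a1 at 4.62 and 9.33 and Col1a1 at 1.02 and 3.27 CPM per kb. Lox, Timp1 and Tagln were the lowest in Intact mice (0.176, 0.235 and 0.244 CPM per kb). Lox and Timp1 had 0 reads in at least 1 library and medians of 9 and 4 reads, so their values rest on few reads. 9 members share exon bases with an annotated gene on the other strand (Col1a1, Col5a1, Col4a1, Col4a2, Col15a1, Tagln, Des, Timp3 and Fbn1). The strand setting of the counting is not given in the sources used here, so reads of the partners cannot be told apart from theirs.

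The cell type was checked with a list of 16 stellate cell markers, 5 of which are among the 35 genes (Lrat, Rgs5, Des, Pdgfra and Pdgfrb). Lrat, the enzyme that makes retinyl esters and a defining stellate cell marker, was read 165 to 965 times per library. Of the markers outside the 35, Reln (reelin) had group means of 39.3 to 108 CPM, and Colec10, a collectin made by stellate cells, had group means of 34 to 84.6 CPM. All 16 genes of the stellate list passed the filter. Markers of vascular smooth muscle were low: of Myh11, Cnn1, Smtn, Myocd and Actg2, only 2 passed the filter, and the summed level of the list was 2.79 to 11.4 CPM over the 48 mice. Group means were 2.74 to 5.29 CPM for Smtn and 1.19 to 3.38 CPM for Myh11, beside 1.43 to 2.48 CPM for Acta2 of the 35. Those of Cnn1, Myocd and Actg2 were at most 0.276 CPM. Of 7 markers of portal fibroblasts and mesothelium, 4 passed the filter, with a summed level of 1.4 to 6.96 CPM over the list. The summed level of the 16 stellate markers was 351 to 610 CPM (median 446) in Intact and 317 to 605 CPM (median 459) in GDX mice.

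Whether removal of the gonads changed these genes was asked separately for mice with ovaries and with testes, in each case averaged over XX and XY. Collagen genes rose in both. After ovariectomy, 25 of 35 genes passed an adjusted p of 0.05 (edgeR), 22 higher and 3 lower, against 69.4% of all tested genes in either direction, 36.0% higher and 33.4% lower. After castration, 26 of 35 passed, 25 higher and 1 lower, against 63.3% of all tested genes, 33.4% higher and 29.9% lower. The share called in either direction was thus close to that of all genes, while the share called higher was larger. The median log2 fold change of the 35 was 0.90 after ovariectomy and 0.71 after castration, beside 0.06 and 0.07 over all tested genes. 22 genes passed in both comparisons, which is 88.0% of the ovariectomy calls and 84.6% of the castration calls. 21 of these were higher in both and 1, Rgs5, was lower in both. 6 genes passed in neither: Acta2, Tagln, Des, Lrat, Timp1 and Timp3. When gene length and GC content were entered as offsets, the medians of the 35 were 0.56 and 0.36, beside 0.02 and -0.02 over all genes. The calls were then 24 (22 higher) and 15 (14 higher), beside 7412 (3592 higher) and 7265 (3145 higher) of 13077 genes. Without the 5 libraries of low TMM factor the calls were 21 (20 higher) and 27 (26 higher). Beside them stood 8940 (4874 higher) and 10060 (5504 higher) of 15972 genes.

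**Figure D1:**
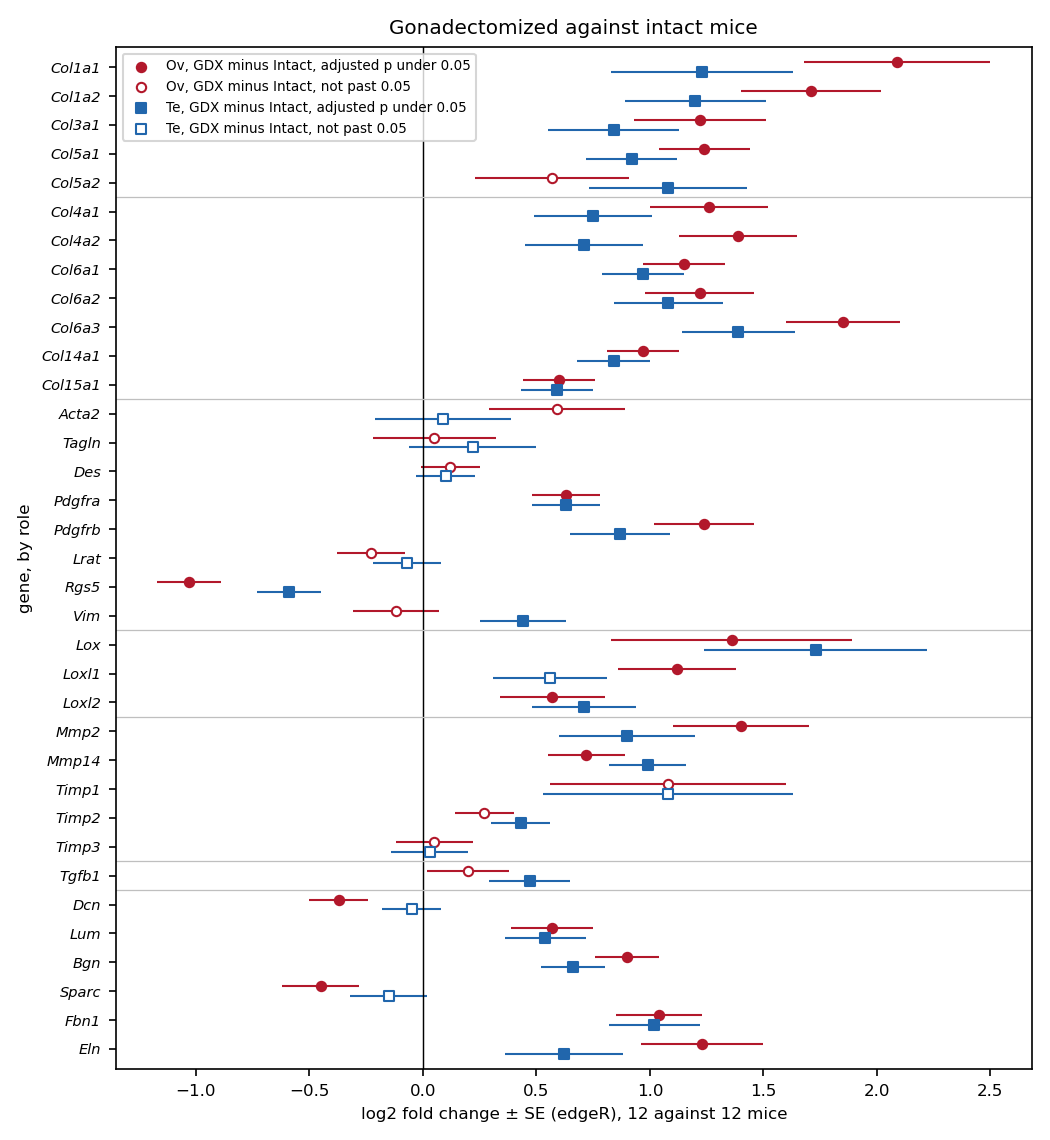
Log2 fold change of each of the 35 genes, GDX minus Intact, in mice with ovaries (red circles) and with testes (blue squares). Whiskers are the standard error, filled symbols have an adjusted p under 0.05 (edgeR), and the collagens in the upper rows lie to the right of 0 while Rgs5 lies to the left.

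The fibrillar collagens, the rope-like collagens of scar tissue, rose in 4 of 5 genes after ovariectomy and in 5 of 5 after castration. Col1a1, the main chain of type I collagen, was at 1.2 to 8.53 CPM (median 4.15) in the 12 Ov Intact mice and at 8.02 to 72.7 CPM (median 13.8) in the 12 Ov GDX mice. In 11 of 12 Ov GDX mice it was above every Ov Intact mouse. The log2 fold change was 2.09 ± 0.41 (SE), a 4.26-fold difference with an adjusted p of 2.02e-05 (edgeR). In mice with testes Col1a1 was at 1.5 to 24.7 CPM (median 4.43) when intact and at 6.29 to 66.6 CPM (median 9.56) after castration. These ranges overlapped widely, with 2 of 12 GDX mice above every Intact mouse, and the log2 fold change was 1.23 ± 0.40 (adjusted p = 0.00703, edgeR). With length and GC offsets the castration calls on Col1a1 (0.72, adjusted p = 0.0979), Col3a1 (0.47, adjusted p = 0.157), Col5a1 (0.31, adjusted p = 0.0605) and Col5a2 (0.76, adjusted p = 0.0567, edgeR) were lost, and of the 5 fibrillar collagens only Col1a2 passed (0.82, adjusted p = 0.00931). Col1a2, its partner chain, did not overlap between Ov Intact (3.26 to 12.4 CPM, median 7.29) and Ov GDX mice (12.5 to 62.4 CPM, median 21.2), with a log2 fold change of 1.71 ± 0.31 (adjusted p = 5.55e-06, edgeR). It was at 2.65 to 21.6 CPM (median 5.49) in Te Intact and 8.1 to 60.2 CPM (median 15.9) in Te GDX mice, a log2 fold change of 1.20 ± 0.31 (adjusted p = 0.000769, edgeR). Col3a1 and Col5a1 rose in both, by log2 fold changes of 1.22 and 1.24 after ovariectomy and 0.84 and 0.92 after castration. Col5a2 passed after castration (1.08) but not after ovariectomy (0.57, adjusted p = 0.137, edgeR), where 1 XX Ov Intact mouse, 81790, was at 21.2 CPM against a median of 2.41 CPM in the Ov Intact mice. Without that mouse the ovariectomy change of Col5a2 was 1.26 (adjusted p = 0.000106, edgeR).

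Averaged over XX and XY mice, all 7 network and other collagens rose after ovariectomy and all 7 rose after castration. In XX Te mice alone the castration change did not pass for Col4a1 (0.51, adjusted p = 0.275) or Col4a2 (0.51, adjusted p = 0.264, edgeR). In XY mice alone Col15a1 passed neither after ovariectomy (0.45, adjusted p = 0.0798) nor after castration (0.47, adjusted p = 0.0812, edgeR). XX and XY were not tested against each other here. Col6a3, a chain of the microfibrils that anchor cells to the matrix, was at 2.13 to 8.8 CPM (median 5.55) in Ov Intact and 14.6 to 44.3 CPM (median 17.1) in Ov GDX mice. No Ov GDX mouse overlapped with an Ov Intact mouse, and the log2 fold change was 1.85 ± 0.25 (adjusted p = 2.43e-08, edgeR). In mice with testes Col6a3 was at 2.96 to 13.3 CPM (median 5.74) before and 8.1 to 36.9 CPM (median 15.6) after castration, with 8 of 12 GDX mice above every Intact mouse and a log2 fold change of 1.39 ± 0.25 (adjusted p = 6.78e-06, edgeR). Its partner chains Col6a1 and Col6a2 rose by 1.15 and 1.22 after ovariectomy and by 0.97 and 1.08 after castration on the log2 scale. The basement membrane collagens Col4a1 and Col4a2 rose by 1.26 and 1.39 after ovariectomy and by 0.75 and 0.71 after castration, and with length and GC offsets their castration changes were 0.24 (adjusted p = 0.281) and 0.18 (adjusted p = 0.384, edgeR), so that those calls were lost. Col14a1, which binds to the surface of collagen fibrils, rose by 0.97 and 0.84. Col15a1, a basement membrane collagen, rose least of the 7, by 0.60 ± 0.16 (adjusted p = 0.00101) after ovariectomy and 0.59 ± 0.16 (adjusted p = 0.00176) after castration (edgeR), from 5.17 to 18 CPM in Ov Intact to 12.5 to 29.9 CPM in Ov GDX mice, and from 4.92 to 11.4 CPM in Te Intact to 7.85 to 16 CPM in Te GDX mice. With length and GC offsets its changes were 0.05 (adjusted p = 0.73) and 0.18 (adjusted p = 0.212). Of the genes described here, 5 did not overlap between the Ov Intact and Ov GDX mice: Col1a2, Col5a1, Col6a1, Col6a3 and Bgn. None of the genes described here was free of overlap between the Te Intact and Te GDX mice. The share of all tested genes free of overlap was not counted. Whether these counts are particular to the matrix genes, or differ between ovariectomy and castration, was not tested.

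**Figure D2:**
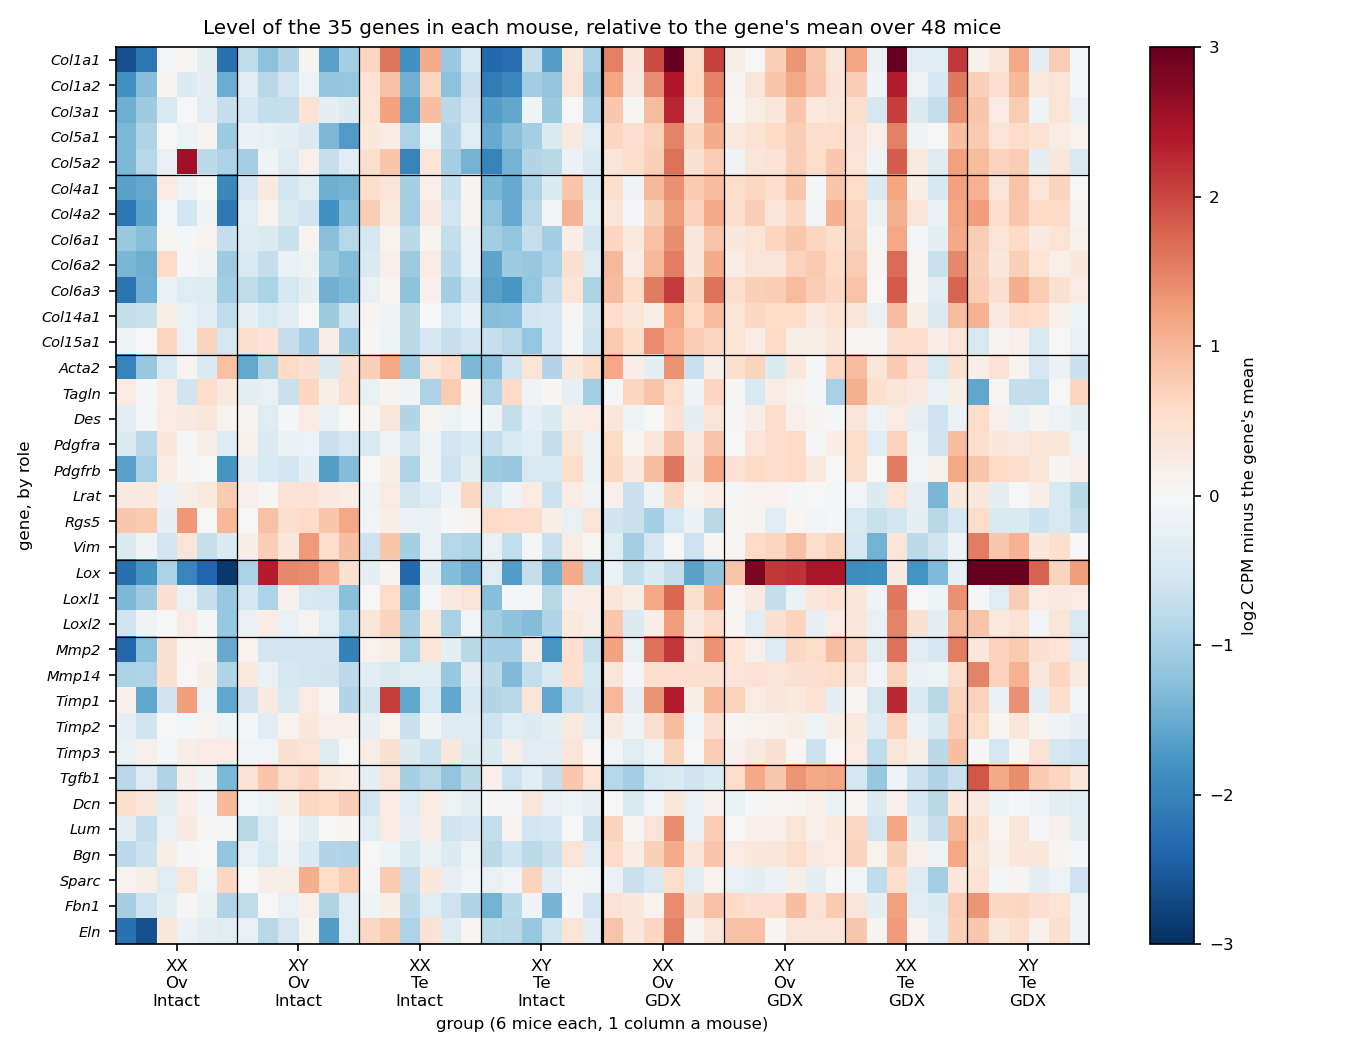
Level of each of the 35 genes in each of the 48 mice, as log2 CPM minus the gene's mean over all mice (red above, blue below the mean, colours end at 3 and -3). Rows are grouped by role and columns by group. Most collagen rows turn from blue to red at the thick line between Intact and GDX mice, Rgs5 turns the other way, and the red blocks of Lox and Tgfb1 lie in XY groups.

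Of 8 stellate and contractile cell genes, 2 rose and 1 fell after ovariectomy, and 3 rose and 1 fell after castration, beside 36.0% and 33.4% of all tested genes called higher. They were not tested against the collagens. The receptors for platelet-derived growth factors rose in both. Their log2 changes after ovariectomy and castration were 1.24 and 0.87 for Pdgfrb and 0.63 and 0.63 for Pdgfra. Vim, the intermediate filament of mesenchymal cells and leukocytes, passed after castration only (0.44, adjusted p = 0.0452, edgeR), a call that held in 35 of 48 fits that left out 1 mouse and in 4 of 9 other settings. It was lost with no filter, 1 surrogate variable, length and GC offsets, the groups of the contrast alone and without the libraries of low TMM factor (0.47, adjusted p = 0.0505, edgeR). By genotype, the castration change of Vim was 0.99 in XY Te (adjusted p = 0.00236) and -0.11 in XX Te mice (adjusted p = 0.781, edgeR). Lrat was at 29.9 to 58.4 CPM (median 40.9) in Ov Intact, 21.3 to 52.3 CPM (median 35.2) in Ov GDX, 21.7 to 52.2 CPM (median 31.6) in Te Intact and 13 to 45.5 CPM (median 30.6) in Te GDX mice. These ranges overlapped, and the intervals of its log2 change were -0.52 to 0.06 after ovariectomy and -0.36 to 0.23 after castration (95%). Acta2, the smooth muscle actin of activated stellate cells, was at 0.332 to 3.24 CPM (median 1.26) in Ov Intact, 1.03 to 4.54 CPM (median 2.06) in Ov GDX, 0.595 to 3.94 CPM (median 2.22) in Te Intact and 1.03 to 3.33 CPM (median 2.08) in Te GDX mice. Its log2 changes were 0.59 ± 0.30 (adjusted p = 0.0758) and 0.09 ± 0.30 (adjusted p = 0.809, edgeR), with an upper bound of 1.17 in the former. Tagln, another contractile protein, and Des (desmin) gave changes between 0.05 and 0.22 that did not pass. The growth factor gene Tgfb1 was at 5.84 to 26.9 CPM (median 17.4) in Ov Intact and 7.38 to 37.9 CPM (median 16.7) in Ov GDX mice (0.20 ± 0.18, adjusted p = 0.335, edgeR), and at 6.6 to 26.5 CPM (median 10.9) in Te Intact and 6.78 to 55.5 CPM (median 16.8) in Te GDX mice (0.47 ± 0.18, adjusted p = 0.0214, edgeR). Both pairs of ranges overlapped, and the castration call was lost with length and GC offsets (0.23, adjusted p = 0.196) and with 1 surrogate variable. By genotype, the castration change of Tgfb1 was 1.06 in XY Te (adjusted p = 0.000512) and -0.11 in XX Te mice (adjusted p = 0.756, edgeR). For Tgfb1 and Vim the XX and XY Te changes were not tested against each other.

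Rgs5 moved against the collagens. It was at 64.5 to 186 CPM (median 132) in Ov Intact and 37.2 to 80.9 CPM (median 64) in Ov GDX mice, with 6 of 12 GDX mice below every Intact mouse and a log2 fold change of -1.03 ± 0.14 (adjusted p = 2.66e-08, edgeR). In mice with testes it was at 65.3 to 114 CPM (median 84.2) when intact and 42.6 to 111 CPM (median 53.5) after castration. Of the Te GDX mice 11 of 12 were below every Te Intact mouse, the exception being XY Te mouse 13306, and the log2 fold change was -0.59 ± 0.14 (adjusted p = 0.000369, edgeR). Other stellate markers outside the 35 genes also went both ways: Reln rose by 1.29 and 0.99 and Cygb by 0.59 and 0.57, while Colec10 fell by 1.10 and 0.62 on the log2 scale after ovariectomy and castration. Over the 16 stellate markers, 6 rose and 3 fell after ovariectomy and 7 rose and 2 fell after castration, beside the same 36.0% and 33.4% of all tested genes called higher.

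**Figure D3:**
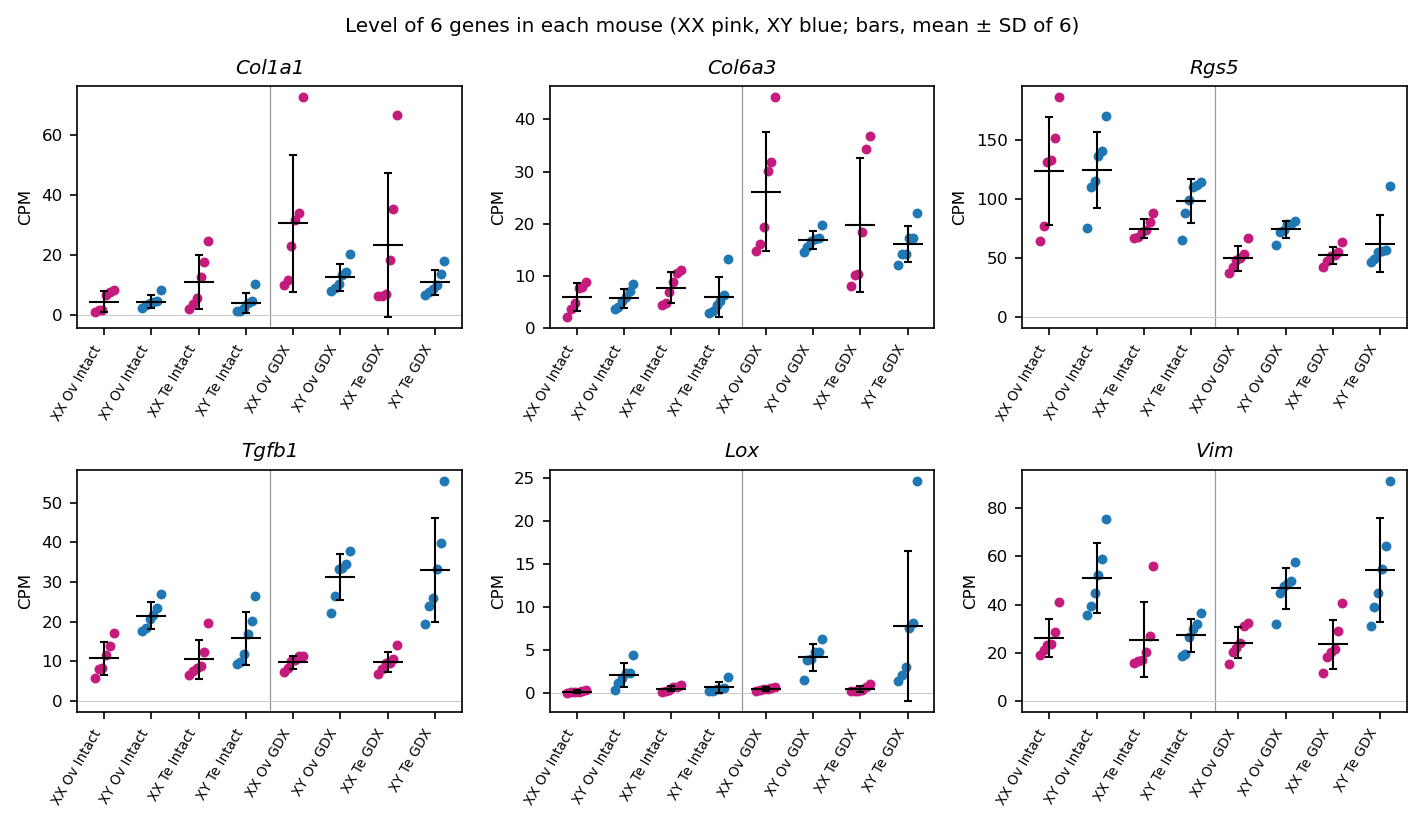
CPM of Col1a1, Col6a3, Rgs5, Tgfb1, Lox and Vim in each mouse of the 8 groups (points; XX pink, XY blue), with the mean ± SD of 6 mice (black). The vertical line parts Intact from GDX mice. Col1a1 and Col6a3 reach higher and are more spread in the XX GDX than in the XY GDX groups, and Tgfb1 and Lox are higher in the XY than in the XX GDX groups without overlap.

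Enzymes that cross-link or cut the matrix rose in part. Lox, the lysyl oxidase that cross-links collagen and elastin, was at 0 to 4.39 CPM (median 0.341) in Ov Intact and 0.172 to 6.2 CPM (median 1.06) in Ov GDX mice, and at 0.0565 to 1.8 CPM (median 0.398) in Te Intact and 0.123 to 24.6 CPM (median 1.11) in Te GDX mice. The ranges overlapped, since most of the spread lay between XX and XY mice (below). The log2 fold changes were 1.36 ± 0.53 (adjusted p = 0.022) and 1.73 ± 0.49 (adjusted p = 0.00246, edgeR), and, with 3 reads equal to 0.15 to 0.23 CPM, their size depends on the prior count of the fit. The ovariectomy call on Lox was lost with no filter, with 1 surrogate variable and without the 5 libraries of low TMM factor (1.16, adjusted p = 0.126, edgeR). By genotype, the castration change of Lox was 3.61 in XY Te (adjusted p = 3.39e-06) and -0.15 in XX Te mice (adjusted p = 0.894, edgeR). These 2 changes were not tested against each other. Loxl1 rose after ovariectomy (1.12). Loxl2 passed in both (0.57 and 0.71), but its ovariectomy call was lost without those libraries (0.41, adjusted p = 0.163), with 1 surrogate variable and with length and GC offsets (0.23, adjusted p = 0.332), and its castration call with the offsets (0.45, adjusted p = 0.0522, edgeR). Of the 5 proteases and inhibitors, the gelatinase Mmp2 (1.40 and 0.90) and the membrane-bound collagenase Mmp14 (0.72 and 0.99) rose in both. Timp1, the inducible inhibitor, was at 0 to 0.73 CPM in Ov Intact, 0.175 to 1.69 CPM in Ov GDX, 0 to 1.38 CPM in Te Intact and 0.0787 to 1.57 CPM in Te GDX mice, with medians of 0.172, 0.345, 0.111 and 0.232 CPM. Its log2 change of 1.08 in both comparisons did not pass (adjusted p = 0.0617 and 0.0839, edgeR), and at this depth much of its range lies at or under 3 reads. Timp2 was at 9.2 to 18 CPM (median 11.5) in Te Intact and 10.9 to 24.4 CPM (median 15.4) in Te GDX mice and rose by 0.43 ± 0.13 (adjusted p = 0.00383, edgeR), a call lost with length and GC offsets, and it gave 0.27 after ovariectomy (9.61 to 18.4 against 13.5 to 28 CPM, adjusted p = 0.0563, edgeR). Timp3 changed by 0.05 and 0.03, with neither passing.

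Of the 6 proteoglycan, elastic fibre and matricellular genes, 4 rose after ovariectomy and the same 4 after castration: Bgn (0.90 and 0.66), Lum (0.57 and 0.54), Fbn1, which encodes fibrillin (1.04 and 1.02), and Eln, elastin (1.23 and 0.62). With length and GC offsets the calls on Fbn1 after both and on Eln after castration were lost. Dcn and Sparc did not. Sparc was at 54.4 to 149 CPM (median 80.3) in Ov Intact and 44.1 to 103 CPM (median 60.8) in Ov GDX mice, a log2 fold change of -0.45 ± 0.17 (adjusted p = 0.0147, edgeR), and at 42.4 to 121 CPM and 34.4 to 101 CPM in Te Intact and Te GDX mice, which did not differ past the threshold (adjusted p = 0.448, edgeR). Dcn was at 161 to 378 CPM (median 234) in Ov Intact and 143 to 243 CPM (median 192) in Ov GDX mice (log2 fold change -0.37 ± 0.13, adjusted p = 0.0108, edgeR), and at 130 to 244 CPM (median 174) and 109 to 242 CPM (median 177) in Te Intact and Te GDX mice (-0.05, adjusted p = 0.74). The direction of Dcn depended on the scaling: with length and GC offsets it was higher in GDX mice, by 0.33 (adjusted p = 0.00265) and 0.35 (adjusted p = 0.00135). Without the 5 libraries of low TMM factor neither the Sparc nor the Dcn call after ovariectomy held.

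Whether castration and ovariectomy differed in size was tested directly, which removes any cohort difference that mice with ovaries and with testes shared. None of the 35 passed (edgeR), against 5.60% of all tested genes. At an unadjusted p of 0.05 there were 2, Rgs5 (0.44, 95% interval 0.06 to 0.83) and Vim (0.56, 0.02 to 1.10), and DESeq2 also called 0. For Col1a1 the difference was -0.86 with an interval of -1.96 to 0.24, and for Col6a3 it was -0.46 with an interval of -1.14 to 0.22. Among GDX mice, those that had carried ovaries and those that had carried testes differed in none of the 35 (edgeR and DESeq2), against 0.0908% of all tested genes. At an unadjusted p of 0.05 there was 1, Col15a1 (0.54, 12.5 to 29.9 CPM against 7.85 to 16 CPM), which passed when the GDX groups were fitted alone (0.55, adjusted p = 0.0138, edgeR).

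The other genes of the matrix and of its signalling, from lists named for these mice with earlier results known, moved as follows. Of 40 further matrix genes tested, 23 rose and none fell after ovariectomy, and 24 rose and 1 fell after castration, with medians of 0.56 and 0.50. Largest were Lama2, a laminin chain (1.91 and 1.31), and, after ovariectomy, Tnxb, tenascin X (1.67). Col12a1 was lower after castration (-0.65). Of 23 genes of transforming and platelet-derived growth factor signalling, 10 rose and 5 fell after ovariectomy and 8 rose and 4 fell after castration. Beside both lists, 36.0% of all tested genes passed as higher and 33.4% as lower after ovariectomy, and 33.4% and 29.9% after castration. Ltbp3, which tethers latent transforming growth factor beta to the matrix, rose by 1.40 and 1.30, while Pdgfd and Pdgfc fell after ovariectomy (-1.28 and -0.87) and Ccn1 and Pdgfc after castration (-0.50 and -0.39). Marker sums of other cell types moved less evenly: the summed level of the Kupffer cell list had a median of 460 CPM in Intact and 307 CPM in GDX mice, the sinusoidal endothelial list 326 and 422 CPM, and the cholangiocyte list 46.5 and 56.9 CPM, with overlapping ranges. In XX Intact and XX GDX mice the medians were 326 and 224 (Kupffer), 313 and 324 (endothelial) and 49 and 82.2 CPM (cholangiocyte). In XY Intact and XY GDX mice they were 572 and 568, 348 and 501, and 41 and 44.2 CPM. The vascular smooth muscle list, of which both tested genes rose after ovariectomy and 1 after castration, had a median sum of 4.91 CPM in Intact (2.79 to 10.6) and 8.32 CPM in GDX mice (4.73 to 11.4), and the portal fibroblast and mesothelium list 3.09 and 3.79 CPM. Their part in the matrix results was not tested.

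The effect of the sex chromosomes, XX against XY, averaged over gonads and cohorts, split the 35 genes. 8 passed (edgeR), 4 higher and 4 lower in XX mice, which is 22.9% of the 35 beside 36.7% of all tested genes (21.9% higher and 14.8% lower). Col1a1, Col1a2, Col15a1 and Tagln were higher in XX mice, and Lox, Tgfb1, Vim and Rgs5 were higher in XY mice. In Intact mice 2 passed, both lower in XX mice, beside 10.7% of all genes (4.27% higher and 6.42% lower). In GDX mice 8 passed, 4 higher and 4 lower, beside 34.3% of all genes (19.5% higher and 14.8% lower). Under scaling by library totals, and with no filter, none of the 35 was called higher in XX GDX mice, while Lox, Tgfb1, Vim and Rgs5 were still called lower. In these settings 787 of 15414 and 1375 of 35860 genes were called higher. Without the 5 libraries of low TMM factor 12 members passed over both cohorts, 8 higher in XX, beside 5842 of 15972 genes (3068 higher). In Intact mice 3 then passed, 1 higher in XX, beside 2448 of 15972 genes (1011 higher).

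**Figure D4:**
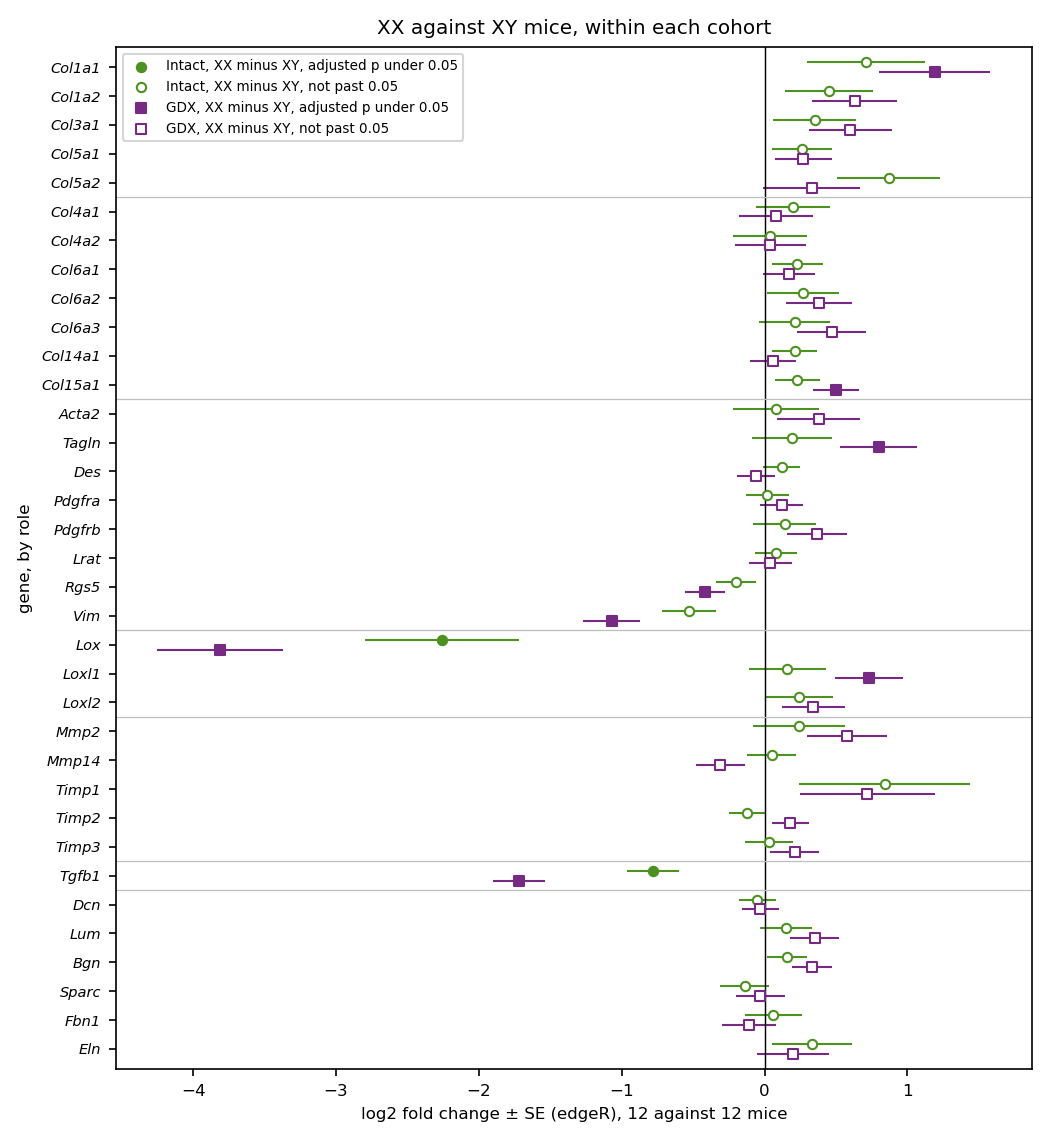
Log2 fold change of each of the 35 genes, XX minus XY, in Intact (green circles) and GDX mice (purple squares), each 12 against 12. Whiskers are the standard error and filled symbols have an adjusted p under 0.05 (edgeR). Lox and Tgfb1 lie to the left of 0 in both cohorts, and Col1a1, Tagln, Loxl1 and Col15a1 pass to the right of 0 in GDX mice under TMM scaling.

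Tgfb1, the growth factor that drives collagen synthesis, was higher in XY mice in both cohorts. In Intact mice it was at 5.84 to 19.7 CPM (median 8.62) in XX and 9.4 to 26.9 CPM (median 19.3) in XY mice, and 7 of 12 XX mice were below every XY mouse (log2 fold change -0.78 ± 0.18, adjusted p = 0.00222, edgeR). In GDX mice it was at 6.78 to 14.2 CPM (median 9.79) in XX and 19.5 to 55.5 CPM (median 33.4) in XY mice, with no overlap (-1.72 ± 0.18, adjusted p = 2.05e-10, edgeR). The chromosomal effect on Tgfb1 was larger in GDX than in Intact mice by -0.93 ± 0.26 (adjusted p = 0.0419, edgeR), the only member to pass that test, beside 2.12% of all tested genes. It passed in 26 of 48 fits that left out 1 mouse, with an adjusted p of 0.00978 to 0.097. Without the 5 libraries of low TMM factor Tgfb1 was again the only member to pass, beside 1193 of 15972 genes, against 327 of 15414 with them. Lox was also higher in XY mice in both cohorts, at lower levels, and its chromosomal effect was not shown to differ between them (-1.55 ± 0.79, adjusted p = 0.382, edgeR). In Intact mice it was at 0 to 0.819 CPM (median 0.17) in XX and 0.156 to 4.39 CPM (median 0.832) in XY mice, with the high values in XY Ov mice (0.339 to 4.39 CPM) rather than XY Te mice (0.156 to 1.8 CPM), and the log2 fold change was -2.26 ± 0.54 (adjusted p = 0.00309, edgeR). In GDX mice it was at 0.123 to 0.941 CPM (median 0.34) in XX and 1.29 to 24.6 CPM (median 4.29) in XY mice, with no overlap (-3.81 ± 0.44, adjusted p = 1.45e-09, edgeR). Vim was at 11.5 to 40.7 CPM in XX GDX and 31 to 91.3 CPM in XY GDX mice, and 10 of 12 XX mice were below every XY mouse (-1.07 ± 0.20, adjusted p = 2.19e-05, edgeR). Rgs5 was lower in XX GDX mice, with a log2 fold change of -0.42 (37.2 to 67.2 against 46.4 to 111 CPM, adjusted p = 0.017, edgeR), and without XY Te GDX mouse 13306 this call was lost (adjusted p = 0.069).

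Markers of other cells moved with these genes. Over all tested genes, 14.8% passed as lower and 21.9% as higher in XX mice. Of 6 neutrophil markers all 6 were lower in XX mice, with a median log2 fold change of -3.03, and the summed level of the list was 2.65 to 37 CPM in XX Intact, 7.01 to 796 CPM in XY Intact, 2.56 to 8.04 CPM in XX GDX and 15.6 to 116 CPM in XY GDX mice. The log2 fold changes of S100a8 and Csf3r were -3.82 and -2.07, and that of Itgax, an integrin of myeloid cells, was -3.93. Of 5 Kupffer cell markers 4 were lower in XX mice, with summed levels of 126 to 323 CPM in XX GDX and 253 to 896 CPM in XY GDX mice. Of 7 markers of recruited macrophages 4 were lower and 1 higher. Of 8 platelet genes, a list added after values had been seen, 4 were tested and 4 were lower, among them Ppbp (-2.86), and Pecam1, which platelets, leukocytes and endothelium share, gave -1.31. Leukocytes and platelets also express Tgfb1 and Vim. The part of these cells in the results for Tgfb1, Lox and Vim was not tested. Within the signalling list Pdgfb (-1.53) and Skil (-0.89) were lowest in XX mice, and Ccn1 (0.41) and Pdgfa (0.39) were highest among those that passed. Of the other matrix genes, Mmp13 (2.89) and Mmp12 (2.63) were highest in XX mice, and Mmp8 (-2.84), which is also in the neutrophil list, and Mmp9 (-2.12) were lowest.

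3 of the 12 collagen genes passed as higher in XX than in XY mice, Col1a1, Col1a2 and Col15a1, beside 21.9% of all tested genes. Col1a1 was at 1.2 to 24.7 CPM (median 6.23) in XX Intact and 1.5 to 10.3 CPM (median 3.98) in XY Intact mice, which did not differ past the threshold (0.71 ± 0.41, adjusted p = 0.294, edgeR). In GDX mice it was at 6.29 to 72.7 CPM (median 20.8) in XX and 6.73 to 20.5 CPM (median 10.3) in XY mice. 6 of 12 XX GDX mice were above every XY GDX mouse and 2 were below every one, so the XX mice were spread on both sides (1.19 ± 0.39, adjusted p = 0.0137, edgeR). Without XX Te GDX mouse 37517, at 66.6 CPM, the difference was 0.86 (adjusted p = 0.0691). The chromosomal effect on Col1a1 was not shown to differ between cohorts (0.48 ± 0.56, adjusted p = 0.736, edgeR). Over both cohorts Col1a1 was higher in XX mice by 0.95 ± 0.28 (adjusted p = 0.00634) and Col1a2 by 0.54 ± 0.21 (adjusted p = 0.0415, edgeR), and the latter call was lost in 24 of 48 fits that left out 1 mouse and in 4 of 8 other settings (DESeq2 size factors, library totals, no filter and at least 10 counts in every mouse). The call on Col15a1 over both cohorts was lost with library totals. Col15a1 was at 11.3 to 29.9 CPM in XX GDX and 7.85 to 16.9 CPM in XY GDX mice (0.50 ± 0.16, adjusted p = 0.0125, edgeR), and Loxl1 and Tagln were higher by 0.73 and 0.80, Tagln at 0.0499 to 0.924 CPM. Bgn and Timp1 lie on the X chromosome. Bgn was at 52.3 to 268 CPM in XX and 63.6 to 172 CPM in XY mice (0.24 ± 0.10, adjusted p = 0.0514, edgeR), and Timp1 gave 0.78 (adjusted p = 0.108), so neither passed. Over both cohorts the Tagln call (0.50, adjusted p = 0.0403, edgeR) held in 29 of 48 fits that left out 1 mouse and in 2 of 7 other settings, and was lost with DESeq2 size factors, library totals, the DESeq2 Wald test, no filter and without the libraries of low TMM factor. Leaving out XY Te Intact mouse 89033, whose Col1a2 and Col6a3 stood above its group, raised the chromosomal calls from 8 to 14, of which 10 were higher in XX mice, Bgn among them (0.30, adjusted p = 0.00768, edgeR).

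The gonadal effect, ovaries against testes in Intact mice, touched few of the genes. 3 of 35 passed (edgeR), all higher with ovaries, beside 25.3% of all tested genes (14.1% higher and 11.3% lower). Col15a1 was at 5.17 to 18 CPM (median 10.5) with ovaries and 4.92 to 11.4 CPM (median 7.27) with testes, and 5 of 12 Ov mice were above every Te mouse (0.54 ± 0.16, adjusted p = 0.0141, edgeR). Rgs5 was at 64.5 to 186 CPM (median 132) with ovaries and 65.3 to 114 CPM (median 84.2) with testes, and 8 of 12 Ov mice were above every Te mouse (0.53 ± 0.14, adjusted p = 0.00415, edgeR). Dcn was at 161 to 378 CPM (median 234) and 130 to 244 CPM (median 174), with 6 of 12 above (0.42 ± 0.13, adjusted p = 0.0141, edgeR). Without the 5 libraries of low TMM factor, 3 of which are XX Ov Intact, only Col15a1 passed, and with the Intact groups fitted alone Col15a1 was the one lost (0.53, adjusted p = 0.0892, edgeR). The Dcn call was also lost with 1 surrogate variable and with length and GC offsets. None of the 3 calls held in every setting. Lrat gave 0.33 ± 0.15 (adjusted p = 0.0921) and Col1a1 -0.57 ± 0.41 (adjusted p = 0.304, edgeR). None of the fibrillar collagens, cross-linking enzymes or inhibitors passed. The stellate list as a whole had 4 of 16 genes higher with ovaries, among them Colec10 (0.53) and Hgf (0.47). The myeloid markers Clec4f (0.64) and Lyz2 (0.80) were also higher with ovaries, but not every myeloid marker was. Marco, of the Kupffer list, had means of 10.5 and 34.5 CPM in XX Ov and XY Ov, against 15.4 and 52.4 CPM in XX Te and XY Te Intact mice. In the same order the median sums of the Kupffer list were 480 and 653 against 224 and 436 CPM. The part of myeloid cells in the Rgs5 and Dcn results was not tested.

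How the genes varied from mouse to mouse within a group was described by their correlation with Col1a1, after group means were subtracted from log2 CPM, in 24 Intact and 24 GDX mice. 34 genes were set against Col1a1 in each cohort, and p-values from 100000 permutations of mice within groups were adjusted over the 68 relations. In Intact mice 26 of 34 passed and in GDX mice 27 of 34, all positive, with median Pearson r of 0.75 and 0.78. Under scaling by library totals, 30 passed in Intact and 32 in GDX mice. Without the 5 libraries of low TMM factor, 25 passed in the remaining 19 Intact mice. Genes outside the members were not correlated with Col1a1, so no share of all tested genes stands beside these counts. Whether the co-variation is particular to the members was not tested. The points share a library and its depth. Col1a2 was closest (r = 0.96, rho = 0.96 in Intact; r = 0.97, rho = 0.93 in GDX), each with the smallest permutation p that can be given (1e-05). Col3a1 followed with r = 0.91 and 0.96, Col6a3 with 0.89 and 0.93 and Pdgfrb with 0.86 and 0.85. Of the stellate genes, Rgs5 did not vary with Col1a1 (r = -0.32 and -0.07, permutation adjusted p = 0.182 and 0.717), and Tagln gave r = -0.20 and 0.19. Acta2 gave r = 0.54 (permutation adjusted p = 0.0193) and 0.43 (0.0806). Dcn, Lum and Lrat gave r = -0.10, 0.41 and 0.16 in Intact and 0.78, 0.91 and 0.63 in GDX mice, a difference that was not tested. Without the 5 libraries of low TMM factor, all Intact, r in Intact mice was 0.27 for Dcn, 0.37 for Lum, 0.40 for Lrat and 0.67 for Sparc (0.39 with them), nearer to the GDX values for Dcn, Lrat and Sparc. When the 2 mice farthest from the median of Col1a1 were left out, 23 relations passed in each cohort.

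**Figure D5:**
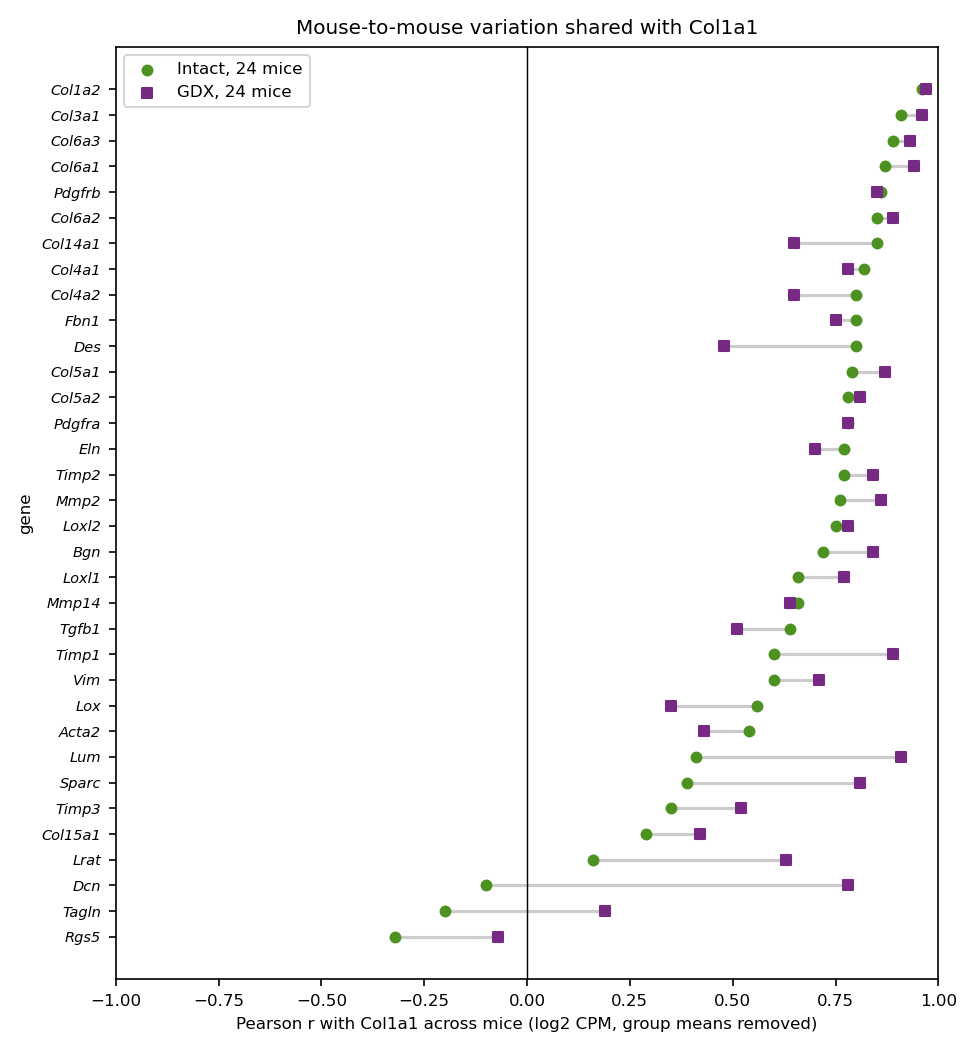
Pearson r of each of 34 genes with Col1a1 across 24 Intact (green circles) and 24 GDX mice (purple squares), from log2 CPM with group means removed. Genes are ordered by r in Intact mice, from Rgs5 at -0.32 to Col1a2 at 0.96, and Dcn, Lrat, Lum and Sparc lie farther to the right in GDX than in Intact mice, with a smaller gap for Dcn, Lrat and Sparc when the 5 libraries of low TMM factor are left out.

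As a summary of the 35 genes in each mouse, the mean of their centred log2 CPM was -0.96 to 0.42 (median -0.37) in Intact and -0.50 to 1.16 (median 0.36) in GDX mice, so the cohorts overlapped. Of the GDX groups those of XX mice were the more spread. XX Te GDX mice ranged from -0.50 to 1.06 (SD 0.63) and XX Ov GDX mice from -0.03 to 1.16 (SD 0.42), while XY Ov GDX mice ranged from 0.25 to 0.57 (SD 0.11). The spreads were not tested against each other. This mean is a description and was not tested.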

How the data were processed

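Liver RNA of 48 mice was sequenced by the submitters (KAPA mRNA HyperPrep). Per the labels' processing notes, the authors used STAR 2.7.10a, the GRCm39 build and DESeq2 1.36.0, and they deposited raw read counts per gene. The annotation release and strand setting are not given in the sources used here. 4 summary rows (reads outside genes, ambiguous, multimapped and unmapped reads) were left out of library sizes. Together they held 25.5% to 42.3% of the reads of a library. Gene IDs were paired with symbols through a reference table of gene names. Genes of low counts were removed (filterByExpr), and 8 group means were fitted to the counts of all 48 mice with edgeR 4.0.16 (TMM, robust quasi-likelihood) in R 4.3.3. P-values were adjusted over 15414 genes (Benjamini-Hochberg, threshold 0.05). CPM use TMM-scaled library sizes, and each SE is the log2 fold change divided by the root of its F statistic. The fit was tested on simulated counts.

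Each group's replicates are separate mice. Chi-square tests of their counts found no pair within sampling noise. Alternatives were DESeq2 1.42.0 (size factors, Wald test), library totals, other filters, 1 surrogate variable (sva 3.50.0), length and GC offsets, the groups of a contrast alone, and leaving out each mouse. Leaving out the low TMM libraries was chosen after seeing the data. Lengths and opposite-strand overlaps came from an older annotation (GENCODE, NCBIM37) than the build of the counts, by gene ID, so no coordinates from it are given. The members and the lists were chosen with earlier results of these data known. Values in every range were given for Col1a1, Acta2, Timp1, Lrat, Tgfb1 and for the 2 highest and 2 lowest passing members of each effect (of gonad, of chromosomes, and of GDX in mice with ovaries or testes). Col5a2, Vim and single other members were added after their values were seen. Figures used matplotlib.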

Additional observations from a re-analysis of the deposited data

Results flagged for a closer look

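Each of 13 members and the mean of the 35 were checked in each group of 6 mice for a mouse set apart from the rest. 12 of 112 such checks found one (a gap to the next mouse over the Dixon limit), each time the highest mouse of its group. The limit flags about 1 in 20 by chance only where values are normal and the checks independent. CPM were not log-transformed and many members vary together, so the 12 cannot be set against that rate. XY Te Intact mouse 89033 stood above its group in 3 matrix genes: Col1a2 at 15.4 CPM (next 5.6), Col6a3 at 13.3 CPM (next 6.27) and Timp2 at 18 CPM (next 12.3). The same mouse had Lox at 1.8 CPM (next 0.572). XY Te GDX mouse 13306 had Rgs5 at 111 CPM (next 56.4) and Lox at 24.6 CPM (next 8.09). XY Te Intact mouse 70314 had Sparc at 112 CPM (next 67.5). XY Ov Intact mouse 69065 had Col1a1 at 8.53 CPM (next 4.69). Timp1 stood apart in XX Te Intact mouse 14614 (1.38 CPM, next 0.135), XX Te GDX mouse 37517 (1.57, next 0.44), XX Ov Intact mouse 81790 (0.73, next 0.266) and XY Te Intact mouse 70314 (0.339, next 0.124), all from few reads. Tgfb1 is included since its chromosomal effect differed between GDX and Intact mice (-0.93, adjusted p = 0.0419, edgeR). In XX Te Intact mouse 14614 and XX Te GDX mouse 37517 Col1a1 was also highest of the group (24.7 and 66.6 CPM).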

How the results depend on the processing

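No paired analysis was possible because each mouse has a number of its own, shared with no other mouse. In counts of members called, the gonadal effect gave 6 with 1 surrogate variable and 1 without the libraries of low TMM factor (3 as reported). Over all genes these settings gave 4028 of 15414 and 2273 of 15972, against 3907 of 15414 as reported. The chromosomal effect gave 5 with library totals, 5 of 28 tested with at least 10 counts in every mouse and 19 with length and GC offsets (8 as reported). Over all genes these gave 4290 of 15414, 3881 of 11527 and 7469 of 13077, against 5657 of 15414. Its part in Intact mice gave 1 of 28 with at least 10 counts (2 as reported), beside 940 of 11527 genes against 1648 of 15414. Its part in GDX mice gave 4 with library totals, 4 with no filter, 5 of 28 with at least 10 counts, 16 with 1 surrogate variable and 18 with offsets (8 as reported). Over all genes these gave 4198 of 15414, 4407 of 35860, 3491 of 11527, 6946 of 15414 and 7204 of 13077, against 5288 of 15414. The castration effect gave 15 with offsets (26 as reported), castration minus ovariectomy gave 1 (Mmp14) with 1 surrogate variable, and the former gonad effect gave 1 (Col15a1) with the GDX groups alone. Beside these 3 counts stood 7265 of 13077, 1195 of 15414 and 33 of 14857 genes. Dcn reversed with length and GC offsets, to 0.33 after ovariectomy and 0.35 after castration. The causes were not tested. Of the members called as reported, 18 of 25 after ovariectomy and 13 of 26 after castration were called in every alternative that tested them. For the chromosomal effect 5 of 8 were, and for the gonadal effect none of 3. Fits that left out a single mouse are not part of these counts. Leaving out each mouse in turn gave 24 to 28 calls after ovariectomy, 22 to 28 after castration, 0 to 1 for their difference, 6 to 14 for the chromosomal effect, 2 to 3 in Intact and 6 to 10 in GDX mice, 0 to 1 for the interaction, 2 to 7 for the gonadal effect and 0 for the former gonad effect. The 7 came without XX Ov Intact mouse 69572 and 5 came without XX Ov Intact mouse 93558. Without XX Te Intact mouse 14614, Vim was called in castration minus ovariectomy. Library totals moved the median of all tested genes to 0.27 after ovariectomy and castration and called 7362 genes higher and 3768 lower after ovariectomy, against 5554 and 5141 with TMM. After castration these were 7306 and 3208 against 5147 and 4611, and for the chromosomal effect 1207 and 3083 against 3382 and 2275. Depth limits Lox, Timp1 and Tagln, with medians of 9, 4 and 6.5 reads.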
